A study of Mus musculus with 2 samples.

Results

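Ribosome biogenesis and growth genes under the transcription factor Myc were followed in IL-10-producing CD4+ T cells. The genes were taken from a list of nucleolar, translation and growth genes that was chosen with earlier results of these data known. All 36 listed genes were found among the 28009 genes counted. The cells were IL-10+ (eGFP+) CD4+ T cells, Foxp3+ cells included, of mice that carry an eGFP reporter for IL-10 and an mRFP reporter for Foxp3. The mice, aged 8 to 16 weeks, were given 15 µg of anti-CD3, which triggers the T cell receptor complex, intraperitoneally on day 0 and again on day 2 (2 doses), and their organs were taken 4 h later. The treatment was the same for both tissues, and no untreated mice were part of the comparison. Cells of the spleen and of the small intestine were captured with the 10X technology as 1 library per tissue, and how many mice were pooled is not named in the sources used here. Intestinal cells had been released from epithelium and lamina propria with EDTA and collagenase at 37 °C, so that tissue and isolation cannot be told apart.

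Ribosomes are built in the nucleolus. RNA polymerase I transcribes the ribosomal RNA precursor, small nucleolar ribonucleoproteins (snoRNPs) guide its chemical modification, and assembly factors cut, fold and load it with ribosomal proteins. T cells that are activated through their receptor enlarge before they divide, and Myc, a transcription factor that binds the E-box sequence CACGTG together with its partner Max, is known to raise the transcription of nucleolar, translation and polyamine synthesis genes at that stage.

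Because the members include textbook Myc targets, the E-box was searched in their promoters, taken from RefSeq on GRCm38.p6 as 250 bases before to 50 bases after each transcription start. CACGTG reads the same on both strands. A promoter was found for 30 of the 36 members (none for Myc, Fbl, Srm, Npm1, Bop1 and Rrs1). The motif was present for 8 of these 30 genes (26.7%), beside 8.09% of 27025 genes with a promoter and 12.4% of 5450 other genes with 100 or more UMIs in the splenic library. It was present for 13 of 48 other ribosome assembly genes (27.1%), for 1 of 14 genes of quiescence and recirculation and for 0 of 12 effector genes. The 8 members were Mybbp1a, Wdr43, Set, Eif5a, Eif4a1, Eif4e, Ran and Phb, and the letters are a description of these windows, not a measured site. Shown are the promoter of Ran and that of Eif4a1, which hold the motif (in capitals) 118 and 189 bases before the start, and that of Nolc1, which lacks it. Whether the motif goes with the tissue differences given below was not tested.
Ran, chr5:129019906-129020205, plus strand: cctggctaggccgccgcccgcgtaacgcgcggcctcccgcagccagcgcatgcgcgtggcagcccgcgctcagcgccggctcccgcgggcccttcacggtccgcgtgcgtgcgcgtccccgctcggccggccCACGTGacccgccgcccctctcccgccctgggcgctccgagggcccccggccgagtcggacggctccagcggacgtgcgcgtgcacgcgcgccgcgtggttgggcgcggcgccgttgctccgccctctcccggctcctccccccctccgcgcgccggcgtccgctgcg
Eif4a1, chr11:69672374-69672673, minus strand: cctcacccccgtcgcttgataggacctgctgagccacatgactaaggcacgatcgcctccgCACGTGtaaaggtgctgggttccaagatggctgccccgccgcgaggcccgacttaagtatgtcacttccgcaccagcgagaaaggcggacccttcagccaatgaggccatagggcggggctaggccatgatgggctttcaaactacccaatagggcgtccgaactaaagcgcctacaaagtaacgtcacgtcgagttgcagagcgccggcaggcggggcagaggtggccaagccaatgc
Nolc1, chr19:46075597-46075896, plus strand: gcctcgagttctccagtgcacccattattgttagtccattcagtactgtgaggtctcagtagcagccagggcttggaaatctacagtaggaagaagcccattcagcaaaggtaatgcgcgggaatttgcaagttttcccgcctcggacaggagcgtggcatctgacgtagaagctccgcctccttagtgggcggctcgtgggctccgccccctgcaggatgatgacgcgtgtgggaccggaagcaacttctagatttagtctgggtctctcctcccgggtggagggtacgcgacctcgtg

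Levels are unique molecular identifiers (UMIs, each counting 1 captured RNA molecule) per 1000000 UMIs of a group of cells (CPM). After a filter on cells, 1648 splenic cells (median 5728 UMIs) and 1339 intestinal cells (median 3756 UMIs) remained, and no barcode was shared between the libraries. With a single library per tissue no test between groups is possible. Bounds in brackets of levels and ratios are exact 95% intervals that cover counting error only. Those of shares of cells are binomial over the cells of 1 library, which are not replicates. Genes are counted by size, as past 1.5-fold among genes with at least 20 UMIs expected in each group at equal levels. Cells with at least 0.1% of their UMIs (and at least 3 UMIs) from proliferation genes made up the cycling class, which held 537 splenic (32.6%) and 159 intestinal cells (11.9%). Of the other cell types, B, erythroid, epithelial and NK cell markers summed to at most 28.7 CPM in either tissue. The CD8 genes Cd8a and Cd8b1 summed to 12.8 CPM in spleen and 371 CPM in small intestine, and the myeloid list to 170 and 147 CPM.

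The members were higher in spleen than in small intestine, all of them and in every role. Their summed level was 10197 CPM (10137 to 10258) in splenic cells and 3701 CPM (3650 to 3753) in intestinal cells, a ratio of 2.75-fold (2.71 to 2.80). Each of the 36 members was past 1.5-fold higher in spleen, where 23.7% of 8987 genes were past that size in this direction and 21.0% in the other. The median log2 ratio was 1.84 over the members and 0.03 over all genes. In cells outside the cycling class the levels were 9819 and 3458 CPM, a ratio of 2.84-fold (2.79 to 2.89), and again 36 of 36 members were past 1.5-fold higher in spleen, beside 21.2% of genes higher and 21.7% lower.

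**Figure D1:**
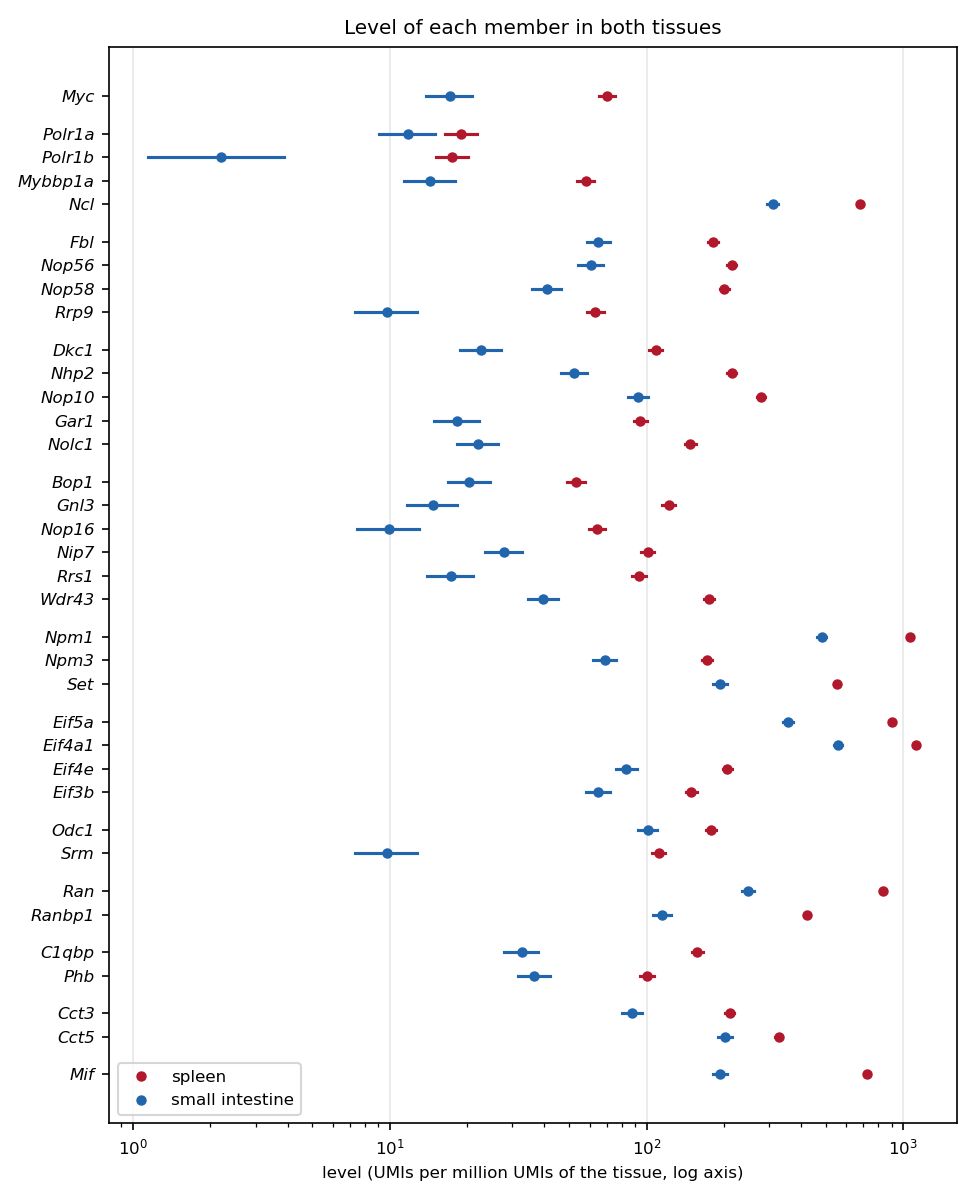
The level of each member (CPM, log axis) is drawn for spleen (red) and small intestine (blue), with members grouped by role and lines for exact Poisson 95% intervals. Every red point lies to the right of its blue point, with the closest pairs at Polr1a and Cct5 and the widest at Srm.

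Myc itself was at 70.3 CPM in spleen and 17.1 CPM in small intestine, a log2 ratio of 2.04 (1.72 to 2.36). Myc acts with partners and against antagonists. Of 11 genes of the Myc network measured beside it, 1 was past 1.5-fold higher in spleen and 3 lower, beside 23.7% and 21.0% of 8987 genes. The 3 repressors Mxd4, Mxd1 and Mxi1, which compete with Myc for Max, showed the opposite order of tissues. Mxd1 was at 51.9 CPM in spleen and 243 CPM in small intestine, Mxi1 at 15.1 and 100.2 CPM, and Mxd4 at 37.1 and 102 CPM.

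RNA polymerase I and its regulators summed to 774 CPM in spleen and 339 CPM in small intestine, a log2 ratio of 1.19 (1.12 to 1.27), but its members differed widely. The subunit Polr1b was at 17.5 and 2.21 CPM, a log2 ratio of 2.99 (2.15 to 3.96) that rests on 12 intestinal UMIs. The largest subunit, Polr1a, was at 19.0 and 11.8 CPM, with the smallest ratio of all members at 0.69 (0.28 to 1.12). The rRNA transcription regulator Mybbp1a was at 57.9 and 14.4 CPM, and nucleolin (Ncl), an abundant nucleolar RNA-binding protein, at 680 and 310 CPM (log2 ratio 1.13). The interval of Polr1a overlapped that of Ncl (1.05 to 1.21) and not those of Polr1b and Mybbp1a.

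The snoRNP proteins were more uniform. The proteins of box C/D snoRNPs, which carry out 2'-O-methylation, and the U3 protein Rrp9 together summed to 661 and 176 CPM (log2 ratio 1.91). Fibrillarin (Fbl), the methyltransferase, was at 182 and 65.0 CPM, its core partners Nop56 and Nop58 at 215 and 60.6 and at 201 and 40.9 CPM, and the U3 protein Rrp9 at 63.3 and 9.76 CPM. The proteins of box H/ACA snoRNPs, which carry out pseudouridylation, and the chaperone Nolc1 together summed to 847 and 208 CPM (log2 ratio 2.02). Dyskerin (Dkc1), the pseudouridine synthase, was at 109 and 22.7 CPM, and its partners Nhp2, Nop10 and Gar1 had log2 ratios of 2.04, 1.59 and 2.38. Nolc1, a nucleolar chaperone of both kinds of snoRNP, was at 148 and 22.1 CPM, a log2 ratio of 2.75 (2.48 to 3.03).

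Subunit assembly factors had the largest summed ratio of the roles with several members, 609 against 130 CPM (log2 ratio 2.23, 2.12 to 2.34). Within it the nucleolar GTPase Gnl3 (nucleostemin) was at 123 and 14.7 CPM (log2 ratio 3.05), and Nop16 at 64.2 and 9.94 CPM (2.69). Rrs1, Wdr43 and Nip7 had log2 ratios of 2.43, 2.14 and 1.86, and Bop1, a factor of the large subunit, was lowest among the 6 at 1.38 (1.09 to 1.69). The other ribosome assembly genes, 49 genes outside the members, followed the same order of tissues: 47 were past 1.5-fold higher in spleen and 1 lower, with summed levels of 3156 and 1191 CPM.

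The nucleolar and histone chaperones summed to 1789 and 744 CPM (log2 ratio 1.27), with Npm1 at 1065 and 482 CPM, Npm3 at 172 and 68.9 CPM and Set at 553 and 193 CPM. The translation factors summed to 2384 and 1060 CPM (log2 ratio 1.17). Among them the helicase Eif4a1 was at 1126 and 557 CPM, Eif5a, which needs a polyamine-derived modification, at 903 and 354 CPM, the cap-binding protein Eif4e at 206 and 83.4 CPM and the scaffold subunit Eif3b at 149 and 64.8 CPM. The chaperonin subunits Cct3 and Cct5 had log2 ratios of 1.26 and 0.69.

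Spermidine synthase (Srm) had the largest log2 ratio of all members, 3.52 (3.12 to 3.94), with 112 CPM in spleen and 9.76 CPM in small intestine. Ornithine decarboxylase (Odc1), the enzyme of the step before it in polyamine synthesis, was at 178 and 101 CPM, a log2 ratio of 0.82 (0.68 to 0.96). The nuclear transport GTPase Ran was at 832 and 249 CPM and its partner Ranbp1 at 421 and 115 CPM. The mitochondrial proteins C1qbp and Phb had log2 ratios of 2.27 and 1.46, and the cytokine Mif was at 723 and 194 CPM. Npm3, Cct3 and Mif have annotated pseudogenes that carry their names (1, 1 and 2), so that the counts of these genes are uncertain where reads could be split between copies.

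Genes of neighbouring pathways gave the frame of this difference, beside 23.7% of 8987 genes past 1.5-fold higher in spleen and 21.0% lower. All 23 nucleotide synthesis genes were past 1.5-fold higher in spleen (1692 against 614 CPM), as were 14 of 17 genes of mitochondrial import and chaperones, 14 of 18 of amino acid transport and tRNA charging, 16 of 26 other translation factors and 13 of 21 subunits and factors of polymerases I and III. Effector genes had the opposite order, with 10 of 16 past 1.5-fold lower in spleen and 2 higher. Early activation genes went both ways, with 11 of 16 lower, Fos and Fosb among them, and 5 higher, Il2ra and Tnfrsf9 among them. Of the mitotic genes 21 of 23, and of the S phase genes 11 of 12, were past 1.5-fold higher in spleen.

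Depth and cell make-up moved with the tissue difference. The summed level was higher in cells with more UMIs in both tissues, 6680, 9438 and 11775 CPM in the lowest, middle and highest tercile of splenic cells by total UMIs and 2969, 3189 and 4323 CPM in those of the small intestine. Among cells of 3000 to 6000 UMIs, with medians of 4487 and 3991.5, the log2 ratio was 1.20 (1.17 to 1.24) in place of 1.46. Intestinal cells mostly carried the chemokine Ccl5, with 10 or more of its UMIs in 1165 intestinal and 222 splenic cells. Among these cells the members summed to 7559 CPM in spleen and 3480 CPM in small intestine, 2.17-fold (2.12 to 2.23), and among cells with fewer Ccl5 UMIs (1426 and 174) to 10565 and 5173 CPM, 2.04-fold (1.98 to 2.11). In either class 33 of 34 members that passed the floor were past 1.5-fold higher in spleen, beside 18.1% of 5806 genes in the class with 10 or more Ccl5 UMIs and 18.9% of 4184 genes in the other. The part that depth and cell make-up have in the remaining ratio was not tested.

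The difference was also seen cell by cell. With every cell thinned at random to 2000 UMIs, the median was 15 member UMIs per cell among 1624 splenic cells (5th to 95th percentile 5 to 41) and 6 among 1230 intestinal cells (2 to 17), and 24 and 109 shallower cells were left out. More than 15 member UMIs, the splenic median, were counted for 48.7% of the splenic and 6.02% (4.75 to 7.49%) of the intestinal cells. More than 17, the intestinal 95th percentile, were counted for 42.4% and 4.72%. The splenic share at the first cut and the intestinal share at the second were thus set by the choice of cut. The variance of these counts was 7.29 times their mean in spleen and 3.87 times in small intestine, where counting alone would give a value near 1. Cells of 1 tissue thus differed from each other by more than counting error. The intervals of levels and ratios are therefore narrower than the spread between cells would make them. The splenic distribution was broad, with its highest cell at 73 UMIs.

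**Figure D2:**
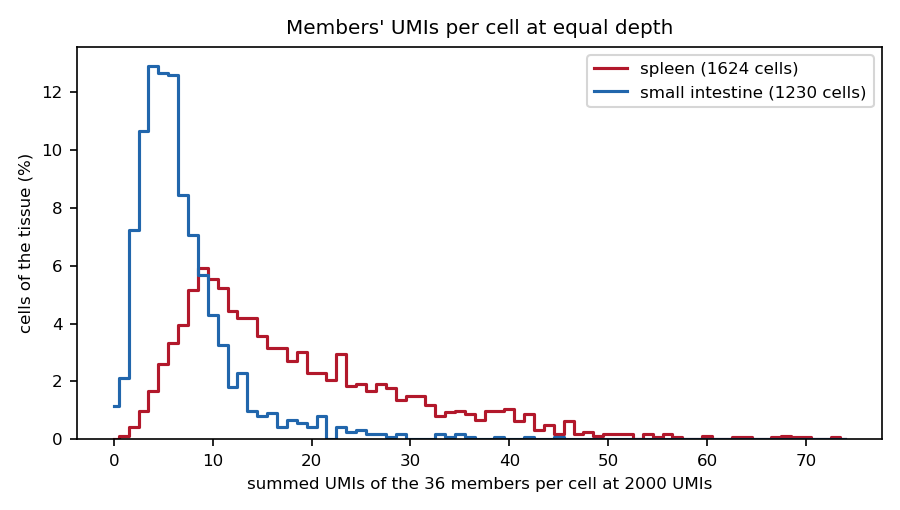
The share of cells (%) is drawn against the summed UMIs of the 36 members per cell after thinning to 2000 UMIs, for spleen (red) and small intestine (blue). The intestinal curve is narrow around its median of 6 and the splenic curve is broad around its median of 15.

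The members also went together from cell to cell within a tissue. For each member, cells were ranked by the UMIs of the other 35 members at 2000 UMIs per cell, and the upper and lower terciles were compared, with 541 splenic or 410 intestinal cells each. All 36 members were past 1.5-fold higher in the upper tercile in spleen, with a median log2 ratio of 1.85, beside 21.6% of 7478 genes that are no members. In the small intestine 31 of the 32 members above the floor were, with a median of 1.30, beside 13.9% of 6223 other genes. The terciles differed in depth as well as in expression. Medians of the upper and lower tercile were 7482 and 4516 UMIs in spleen and 4132 and 3662.5 UMIs in small intestine. The largest splenic ratios were those of Polr1b (36.2 against 1.09 CPM), Srm (log2 ratio 4.21) and Nolc1 (3.59), and the smallest were those of Cct5 (0.72) and Nop10 (0.99). In small intestine Nop16 (23.4 against 1.28 CPM) and Nolc1 (log2 ratio 3.08) led, and Cct5 (0.38) was the single member under 1.5-fold. The lower-tercile levels of Polr1b in spleen and Nop16 in small intestine rest on very few UMIs, so that their ranks are uncertain. Cycling cells made up 37.9% of the upper and 23.1% of the lower tercile in spleen, and 19.5% and 8.29% in small intestine.

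Across the same terciles, now by all members, 47 of 49 other ribosome assembly genes were past 1.5-fold higher in the upper tercile in spleen and 28 of 35 in small intestine, led by Nle1, Ppan and Mrto4 and by Wdr12, Pno1 and Ppan. Nucleotide synthesis genes followed, with 21 of 22 and 10 of 14. Among them Shmt1, which charges folate with a carbon unit taken from serine, was at 84.7 CPM in the upper and 2.54 CPM in the lower splenic tercile, and the CTP synthase Ctps at 59.6 and 4.72 CPM. The amino acid transporter Slc7a5 was at 64.2 and 6.90 CPM. S phase genes were higher for 12 of 12 in spleen and 10 of 10 in small intestine, whereas mitotic genes were past 1.5-fold higher for 1 of 23 (and lower for 1) in spleen and for 21 of 21 in small intestine.

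Genes of quiescence and recirculation went the other way in spleen, with 15 of 17 past 1.5-fold lower in the upper tercile, beside 16.6% of genes that are no members. The factor Klf3 was at 6.45 and 51.6 CPM, Txnip, an inhibitor of glucose uptake, at 21.1 and 138 CPM, and S1pr1, the receptor for egress into lymph, at 17.6 and 111 CPM. In the small intestine 1 of 13 of these genes was lower, beside 4.52% of genes that are no members, and 1 higher, with Klf3 at 20.4 and 31.4 CPM. Mxd4 was at 16.7 CPM in the upper and 70.1 CPM in the lower splenic tercile and at 84.1 and 118 CPM in the intestinal ones. The chemokine Ccl5 was at 652 CPM in the upper and 6265 CPM in the lower splenic tercile, and at 31826 and 62744 CPM in small intestine. Of the early activation genes Tnfrsf9 (4-1BB) was higher with the members in both tissues (417 against 112 CPM and 201 against 99.9 CPM), and Fos lower in spleen (57.3 against 192 CPM).

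Of 5713 named genes ranked in both tissues by the smaller of the ratios between terciles, the highest were Il17f, Il17a, Nsun2, Pno1, Gart, Apex1, Ppan, Wdr75, Rcl1 and Hells. Of these Pno1, Ppan, Wdr75 and Rcl1 are ribosome assembly genes, Nsun2 methylates RNA, Gart makes purines and Hells remodels chromatin during replication. Il17a, a cytokine gene of Th17 cells, was at 23.1 and 2.18 CPM in the splenic terciles and at 102 and 12.2 CPM in the intestinal ones. Il17f was at 13.3 and 0.726 CPM and at 233 and 18.6 CPM. Over quintiles of cells by the members' UMIs, intestinal Il17a was at 5.3, 15.9, 39.8, 47.4 and 123 CPM from the lowest to the highest. Intestinal Il17f was at 30.7, 0, 50.5, 15.8 and 353 CPM, without a steady order. Splenic Il17a was at 2.54, 1.13, 2.33, 4.44 and 33.7 CPM. Splenic Il17f, with 2, 0, 24, 0 and 60 UMIs, was at 1.27, 0, 11.2, 0 and 21.5 CPM, again without a steady order. The lowest ratios were those of Usp18, Pydc3, Zfp945, Lgals3 and Klhl24.

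**Figure D3:**
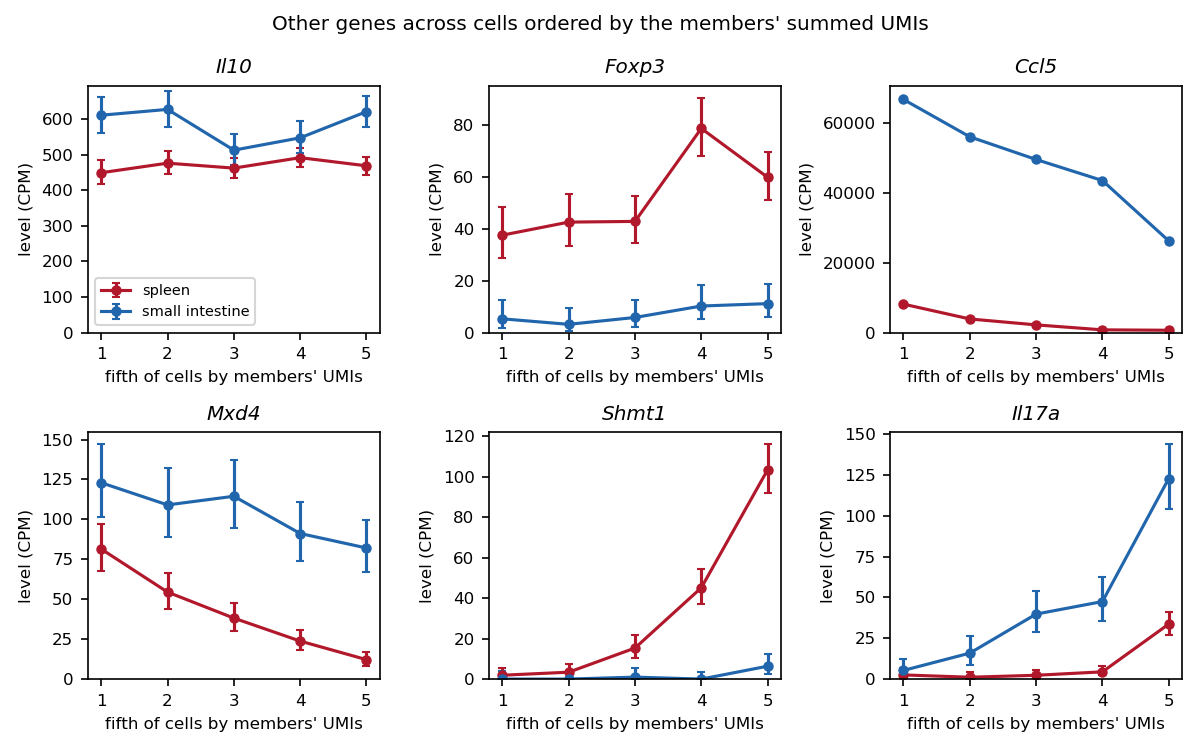
Levels (CPM, exact Poisson 95% intervals) of 6 genes that are no members are drawn over quintiles of cells by the members' summed UMIs at 2000 UMIs, for spleen (red) and small intestine (blue). Il10 stays near one level in spleen, Ccl5 and Mxd4 are lower and Il17a is higher in the top quintile of both tissues, and Shmt1 is high in the top quintile of spleen.

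In spleen the summed level was 10669 CPM in cycling and 9819 CPM in other cells, 1.09-fold (1.07 to 1.10), although cycling cells were deeper, with medians of 8515 and 4944 UMIs. On the log2 scale this ratio was 0.12, and it was 0.0010 (-0.016 to 0.018) with totals that leave out ribosomal protein and mitochondrial genes and 0.026 without the 5% of cells with the most UMIs. Of the 36 members, 2 were past 1.5-fold higher in cycling cells, beside 13.6% of 8649 genes, and 2 were lower, beside 9.2%. The higher ones were Ran (1163 against 566 CPM, log2 ratio 1.04) and Ranbp1 (568 against 303 CPM, 0.91), which also serve spindle assembly in mitosis. The lower ones were Nop16 (48.6 against 76.7 CPM, log2 ratio -0.66) and Myc (53.8 against 83.5 CPM, -0.63). In small intestine the summed level was 4892 and 3458 CPM, 1.41-fold (1.37 to 1.46), and 7 of 25 members above the floor were past 1.5-fold higher, beside 9.59% of 4849 genes. They were Ran (602 against 176 CPM), Ranbp1 (232 against 91.2 CPM), Npm3, Nhp2, Set, Nop58 and Mif, the last 5 with log2 ratios of 0.61 to 0.82. Without the 5% of cells with the most UMIs, 2 members were past 1.5-fold higher in small intestine, and the share of all genes was not computed there. Myc was at 9.76 CPM in intestinal cycling cells and 18.6 CPM in the others, where its ratio was within counting error.

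**Figure D4:**
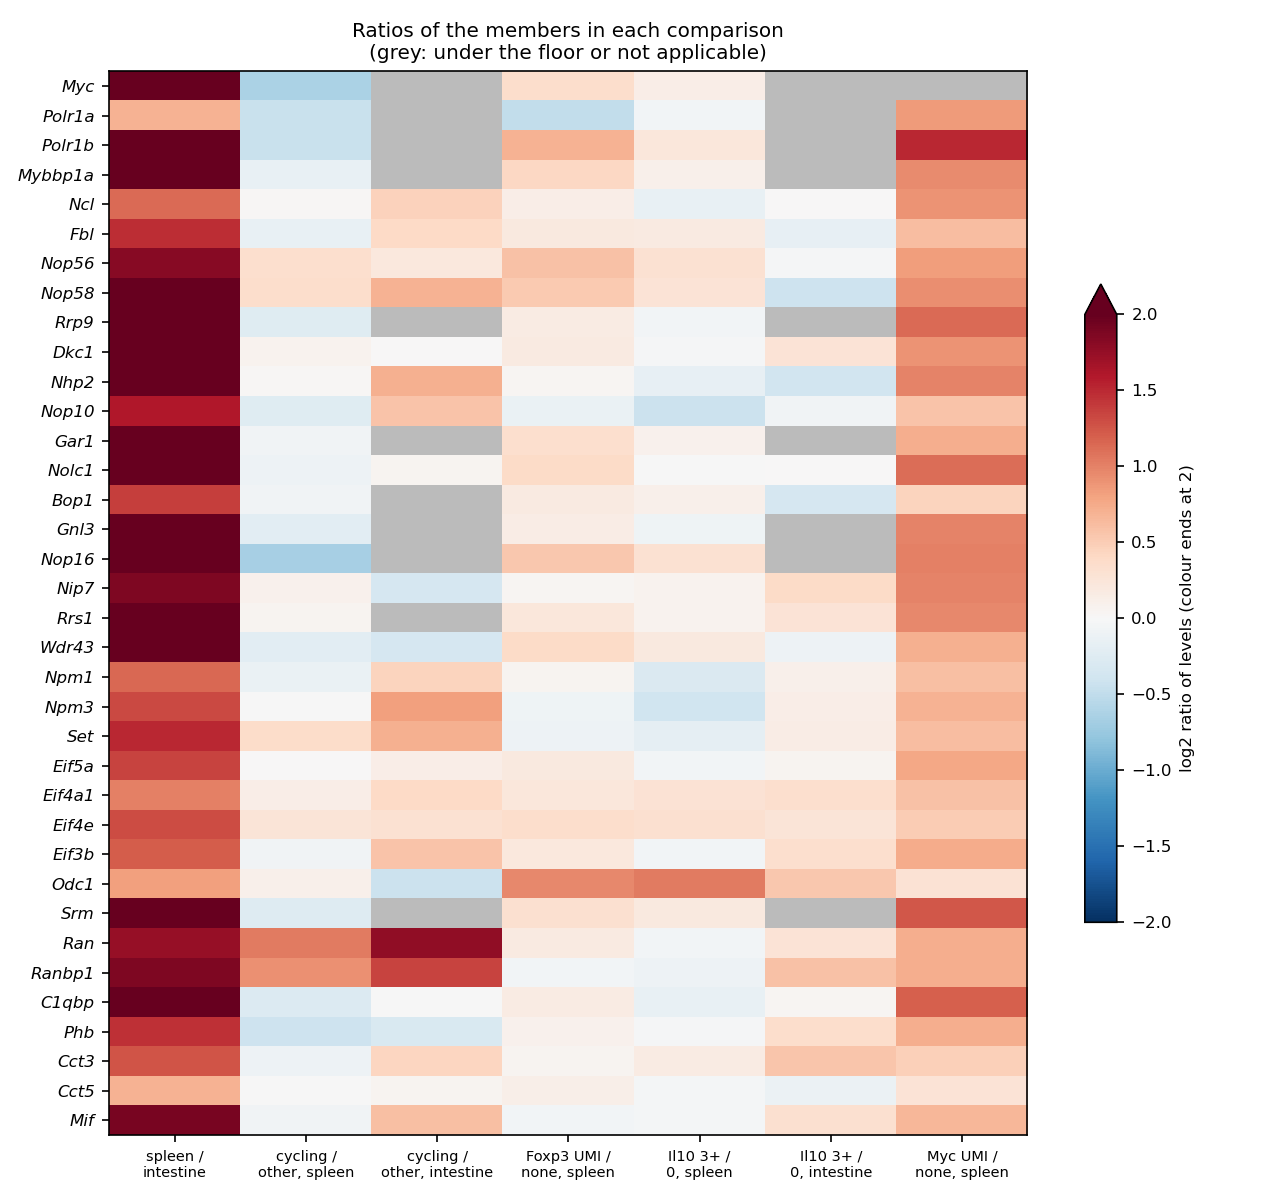
The log2 ratio of every member is drawn as colour for 7 comparisons (red higher in the group named first, blue lower, grey under the floor or not applicable, colour ending at 2). The tissue column is red throughout, the column of splenic cells with a Myc UMI nearly so, and in the others Ran, Ranbp1 and Odc1 are the deepest red.

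Cells in which Myc itself was captured held more of the other members. Outside the cycling class, 271 splenic cells had a Myc UMI and 840 had none, and the 35 other members summed to 13413 and 8179 CPM, 1.64-fold (1.61 to 1.67). Of the 35, 29 were past 1.5-fold higher and 0 lower, beside 8.27% of 6383 genes higher. Polr1b (36.5 against 12.8 CPM), Srm (log2 ratio 1.25) and C1qbp (1.19) had the largest ratios, and Cct5 (0.28) and Odc1 (0.29) the smallest. In small intestine, with 62 and 1118 cells, the levels were 4981 and 3334 CPM, 1.49-fold (1.41 to 1.58), and 4 of 13 members above the floor were past 1.5-fold higher, beside 2.24% of 1960 genes. Cells with a Myc UMI were deeper (6223 against 4614 and 4134.5 against 3618.5 UMIs). Within terciles of total UMIs the 35 other members were higher with a Myc UMI in all 3 splenic terciles, at 14642 against 9572 CPM in the highest and 8544 against 5899 CPM in the lowest. In small intestine they were higher in the highest (5589 against 3707 CPM) and middle tercile (4471 against 3076 CPM) but not in the lowest, where 14 cells with a Myc UMI were at 2875 CPM (2352 to 3481) and the others at 2921 CPM (2810 to 3034).

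Foxp3, the transcription factor of regulatory T cells, separated the members little outside the cycling class. A further 167 splenic cells with a Foxp3 UMI were in the cycling class and were not part of this comparison. Among splenic cells outside the cycling class, 170 with a Foxp3 UMI summed to 10745 CPM and 941 without one to 9607 CPM, 1.12-fold (1.10 to 1.14). Of the 36 members, 2 were past 1.5-fold higher and 0 lower, beside 4.9% of 5182 genes higher and 5.58% lower. These were Odc1 (286 against 147 CPM, log2 ratio 0.96, 0.76 to 1.15) and Polr1b (28.8 against 17.8 CPM, 0.69, 0.06 to 1.29). Cells with a Foxp3 UMI had a median of 6212 UMIs and the others 4720. Within the middle tercile of total UMIs the sums were 8880 and 8917 CPM and within the highest 11695 and 11843 CPM, with overlapping intervals in both, whereas in the lowest they were 7185 and 6161 CPM. In small intestine 2.17% of cells had a Foxp3 UMI, beside 1 of 135 intestinal cells with UMIs of both CD8 genes (0.741%, up to 4.06%), with a median of 4617 UMIs. The 26 cells with one outside the cycling class summed to 4114 CPM and the 1154 others to 3439 CPM, 1.20-fold (1.09 to 1.31), and 0 of 8 members above the floor were past 1.5-fold, beside 9.52% of 840 genes higher and 10.7% lower. Odc1, under the floor there, was at 337 and 99.0 CPM. Over quintiles of cells by the members' UMIs, cycling cells included, splenic Foxp3 was at 37.5, 42.6, 42.8, 78.7 and 59.8 CPM. Intestinal Foxp3 was at 5.30 CPM in the lowest and 11.2 CPM in the highest quintile, on 5 and 14 UMIs.

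The level of Il10, the cytokine whose reporter the cells were sorted on, bore no steady relation to the members in spleen. In splenic cells outside the cycling class the sum was 9620 CPM with 0 Il10 UMIs, 10362 CPM with 1 to 2, 9687 CPM with 3 to 9 and 8917 CPM with 10 or more. Cells with 3 or more (328) and with 0 (435) differed by 0.992-fold (0.972 to 1.01). Of the 36 members, 1 was past 1.5-fold higher and 0 lower, beside 9.0% of 6702 genes higher and 4.76% lower. That member was again Odc1, at 225 and 110 CPM (log2 ratio 1.03, 0.80 to 1.27), and at 1.02 among cells with no Foxp3 UMI. Srm, beside it in polyamine synthesis, was at 0.20 and Eif5a at -0.06. Summed by role, smaller differences went both ways. The box C/D and U3 proteins were at 0.21 (0.10 to 0.33) and the translation factors at 0.13 (0.07 to 0.19). The nucleolar and histone chaperones were at -0.27 (-0.34 to -0.20) and the box H/ACA proteins with Nolc1 at -0.18 (-0.28 to -0.08). RNA polymerase I and its regulators, a sum that was mostly Ncl over all splenic cells, were at -0.12 (-0.22 to -0.02). In small intestine the sums were higher with more Il10 UMIs, 3217, 3489, 3531 and 4221 CPM over the same classes. Cells with 3 or more (409) against 0 (326) were at 1.11-fold (1.07 to 1.16), a log2 ratio of 0.15 that was 0.057 within terciles of total UMIs, with 0 of 27 members past 1.5-fold, beside 4.6% of 5197 genes higher and 3.14% lower. Odc1 was at 115 and 79.4 CPM there (log2 ratio 0.54, 0.17 to 0.92). Among cells with no Foxp3 UMI its log2 ratio was 0.30 (-0.09 to 0.69). At 2000 UMIs per cell, with the Il10 classes set anew from the thinned counts, it was -0.30 (-0.95 to 0.31).

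The near-equal splenic sums did not hold at every depth. In the lowest tercile of total UMIs, cells with 0 and with 3 or more Il10 UMIs were at 6011 and 6509 CPM. The ratio with 3 or more against 0 was 1.08-fold (1.02 to 1.15), above 1 by more than counting error. In the middle tercile they were at 8139 and 8497 CPM. The intervals of these levels overlapped, and the interval of their ratio was not computed. In the highest they were at 13841 (13579 to 14106; 97 cells) and 10364 CPM (10194 to 10535; 167 cells), a ratio of 0.749-fold (0.730 to 0.768), at median depths of 7586 and 7798 UMIs. In that tercile 9 of 35 members were past 1.5-fold lower with 3 or more Il10 UMIs, beside 241 of 4209 genes (5.73%). Past 1.5-fold higher was 1 member, beside 521 of 4209 genes. Of the 35 members, 2 had a ratio above 1. The median log2 ratio was -0.41 over the members and 0.09 over all genes. Npm3 (158 against 289 CPM) and C1qbp (169 against 298 CPM) had the lowest ratios and Odc1 (248 against 147 CPM) was past 1.5-fold higher. This look at single terciles was chosen after the summed values had been seen. In small intestine the terciles from lowest to highest were at 2652, 3025 and 3934 CPM with 0 Il10 UMIs. With 3 or more they were at 3062, 2884 and 4020 CPM, so that the middle one had the opposite order. The intervals of the levels overlapped in all 3, but in the lowest only between 2822 and 2828 CPM. Such overlap does not mean equal levels, and intervals of these intestinal ratios were not computed.

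**Figure D5:**
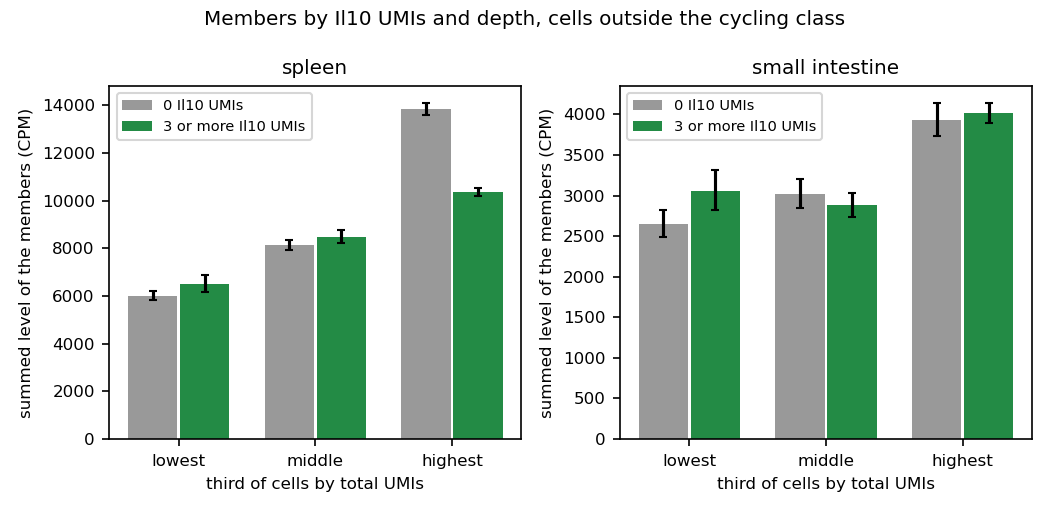
Bars give the summed level of the 36 members (CPM, axis from 0, exact Poisson 95% intervals) for cells outside the cycling class with 0 (grey) and with 3 or more (green) Il10 UMIs, in terciles by total UMIs, for spleen and small intestine. The splenic bars are close in the lowest and middle tercile and differ in the highest, where cells with 0 Il10 UMIs are at 13841 CPM and those with 3 or more at 10364 CPM.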

How the data were processed

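The authors trimmed the reads with Trimmomatic, aligned them to Mm10 with CellRanger and deposited UMI counts per gene and cell barcode, with no normalization. The submitters' processing notes name mm8 as well as mm10, and versions are not given in the sources used here. The libraries held 1738 (spleen) and 1474 barcodes (small intestine) with 11103530 and 5693395 UMIs. Barcodes with log UMIs or log genes lower than the median by over 3 median absolute deviations, or with a mitochondrial share higher by as much, were removed (90 and 135), and doublets were kept. G2/M cells were called with cyclone of scran 1.30.0 in R 4.3.3 for an alternative. Levels, exact Poisson intervals, ratios with exact binomial (Clopper-Pearson) intervals and random thinning (seed 1) used Python 3.11.15, numpy 2.4.6 and scipy 1.17.1. The ratios, their intervals and the comparison of terciles were tested on simulated data, and the Poisson intervals were not. Data simulated for the ratio intervals held no differences between cells beyond counting error. No p-value was computed. Over all kept cells a level of 3 UMIs was 0.278 CPM in spleen and 0.552 CPM in small intestine, and it was higher in any smaller group. Named beside the 36 members were the 10 genes with the highest and the 5 with the lowest ratios between terciles over both tissues. Up to 3 genes per list with the largest ratio between terciles, and further genes of the plotted quintiles, were named as well. The members and lists were chosen with earlier results of these data known. List genes not found under their listed symbol were left out.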

Additional observations from a re-analysis of the deposited data

Results flagged for a closer look

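For 4 of the 36 members the ratio lay beyond counting error one way with cycling in spleen and the other way in small intestine. The share of all genes that would meet this rule was not computed, so that the count of 4 has no frame. The log2 ratio of cycling to other cells was -0.15 in spleen and 0.40 in small intestine for Fbl, -0.24 and 0.56 for Nop10, -0.13 and 0.45 for Npm1, and -0.076 and 0.61 for Mif. Each tissue is a single library, and the difference between the tissues was not tested. Cycling cells were deeper than the others in both tissues, with medians of 8515 and 4944 UMIs in spleen and 5297 and 3666.5 UMIs in small intestine, and the part of depth in these ratios was not tested.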

How the results depend on the processing

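A ratio recomputed under an alternative was called the same if it lay within the counting interval of the reported ratio. A count of members was called the same if it was within 1.5-fold of the reported count, so that no error stands behind it. Shares of all genes were not recomputed for these counts. Of the summed levels and counts, 88 values were the same and 52 moved, and of single members 86 were the same, 11 moved and 1 reversed. The count between intestinal terciles, reported as 31, was 21 to 33 over 7 alternatives, all called the same. No paired analysis was possible because each tissue had 1 library, and no library could be left out. The log2 ratio of spleen to small intestine (1.46) was 1.52 without G2/M cells, 1.43 with median-ratio scaling, 1.60 with totals without ribosomal protein and mitochondrial genes, 1.40 at 2000 UMIs, 1.42 as a mean of single-cell shares, 1.68 without the 5 members with the most UMIs, 1.51 without the 5% deepest cells, and, in alternatives chosen after seeing the data, 1.20 for 3000 to 6000 UMIs, 1.41 without Cd8a or Cd8b1 UMIs, 1.12 with 10 or more and 1.03 with 0 to 9 Ccl5 UMIs. Outside the cycling class (1.51) the same alternatives gave 1.69 for the reduced totals, 1.40 at 2000 UMIs, 1.43 for the mean of shares, 1.73 without the 5 members, 1.25, 1.45, 1.17 and 1.12 for those chosen after seeing the data, and 1.55 with the cycling cut at 0.05%. Cycling against other cells in spleen (0.12) was 0.0010 with reduced totals, 0.058 without the 5 members, 0.026 without the deepest cells, 0.062 and 0.14 with cuts of 0.05% and 0.2%, and 0.093 with a class from mitotic genes. In small intestine (0.50) it was 0.34 at 2000 UMIs, 0.39 as a mean of shares, 0.40 without the 5 members, 0.24 without the deepest cells, and 0.43 and 0.63 with the cuts, and the count of members past 1.5-fold was 2 in place of 7 without the deepest cells. Foxp3 UMI against none in spleen (0.16) was 0.12 with reduced totals, 0.10 at 2000 UMIs, 0.24 as a mean of shares, 0.20 with the cut of 0.05%, 0.21 with the mitotic class and 0.066 within depth terciles, with 1 member past 1.5-fold at a floor of 50, and 0.074 at 2000 UMIs in small intestine (0.26). Il10 in spleen (-0.01) was -0.11 with median-ratio scaling, -0.15 with reduced totals, -0.085 at 2000 UMIs, 0.10 as a mean of shares, 0.017 without the 5 members, -0.080 within depth terciles and -0.073 in cells with no Foxp3 UMI, so that its direction was not stable. In small intestine it was 0.057 within depth terciles, with 1 member past 1.5-fold among all barcodes, at a floor of 10 and without the deepest cells, and Odc1 reversed at 2000 UMIs (-0.30). At 2000 UMIs the Foxp3 and Il10 classes were set anew from the thinned counts, so that their groups of cells differ from those reported. The causes were not tested. All 36 members stayed past 1.5-fold higher in spleen in 5 alternatives. These were all barcodes, median-ratio scaling, floors of 10 and 50 expected UMIs, and leaving out the 5% deepest cells. In either Ccl5 class 33 of the 34 members above the floor were past that size. As a mean of single-cell shares the log2 ratio of Polr1a was 0.52, which is under 1.5-fold. Members past 1.5-fold were not counted at 2000 UMIs or for 3000 to 6000 UMIs.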

Other observations

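In the spleen the quintiles of cells by the members' UMIs also differed in genes of activation and circulation. Il2ra, the high-affinity IL-2 receptor chain, was at 70.6, 88.5, 137, 194 and 239 CPM from the lowest to the highest quintile, and Tnfrsf9 at 110, 132, 187, 339 and 461 CPM. Klf2, a factor of resting and recirculating T cells, was at 478, 425, 340, 182 and 122 CPM. The inhibitory receptor gene Lag3 was at 1316 CPM in the lowest and 942 CPM in the highest quintile, and Ctla4 at 1202 and 1544 CPM. Il10 itself lay between 450 and 492 CPM in all 5 splenic quintiles.

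In small intestine Klf2 was at 17.0 to 31.1 CPM in every quintile, Il2ra at 17.0 CPM in the lowest and 40.6 CPM in the highest, and Il10 between 513 and 628 CPM. Mki67, a marker of dividing cells, was highest in the middle quintile in spleen (107 CPM, beside 55.3 and 68.8 CPM in the lowest and highest). Cycling cells made up 18.5% of the lowest, 40.9% of the middle and 35.8% of the highest splenic quintile.

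Epcam, kept in the list of epithelial markers, was at 49.3 CPM in the upper and 6.90 CPM in the lower splenic tercile, whereas the whole epithelial list, which includes it, summed to 49.8 and 7.26 CPM. Il4 was at 3.56 CPM in the upper splenic tercile, with a log2 ratio of -2.49 to the lower one.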
